A study of Mus musculus with 52 samples.

Results

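The noncanonical NF-kB pathway was followed through 10 genes in bulk RNA-seq of subcutaneous KPC tumors: Nfkb2, Relb, Map3k14, Traf1, Traf2, Traf3, Birc2, Birc3, Chuk and Tnfaip3. They were chosen by name among the 27525 genes of the normalized count table, and all 10 had a row and passed the filter on low values in every comparison. The table holds 32 tumors in 4 groups of 8, namely Untreated, ADU-S100, anti-LTbR and Combination. All mice were male C57BL/6NHsd animals 8 to 10 weeks old that carried tumors of the same KxPxCx line, pancreatic tumor cells from a Pdx1-Cre mouse with engineered alleles that include Trp53 LSL.R172H/+. ADU-S100, a cGAMP analog that activates STING, was injected once into the tumor at 2 µg, and the agonistic anti-LTbR antibody 4H8 was given intraperitoneally at 100 µg, 4 times until day 10. The Combination group received both agents, and all tumors were resected on day 14. Each library came from 1 tumor grown from a single line, so p-values measure the spread between tumors of that line. How many mice carried the 8 tumors of a group is not given in the sources used here. The tests treat the tumors as independent.

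In this pathway the kinase NIK, encoded by Map3k14, is kept scarce in resting cells by a complex of TRAF2, TRAF3 and the ubiquitin ligases cIAP1 and cIAP2, which are encoded by Birc2 and Birc3. Engagement of LTbR, CD40 and related receptors dissolves this complex, NIK accumulates and activates IKK alpha (Chuk), and the Nfkb2 product p100 is processed to p52, which enters the nucleus with RelB. The pathway is best known for the stromal signals that build lymph nodes and other lymphoid tissue. Much of it is regulated through protein stability and processing, which RNA-seq does not measure.

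The promoters of 9 members were listed in the RefSeq table for GRCm38 and one, Relb, was not. In the 250 bases before the first listed start, the NF-kB consensus was searched on both strands, with overlapping matches counted. It was found in 3 of these 9 first-listed promoters, those of Nfkb2, Traf3 and Tnfaip3, and in 3.75% of 27025 genes searched the same way. The 3 promoters with a match are shown with that of Birc3, the member that differed most between groups and has none of these letters in this window. Each reads 5′ to 3′ in the direction of the gene and ends at the base before the start, and capitals mark the matches.
Nfkb2 promoter, chr19:46304487-46304736, plus strand: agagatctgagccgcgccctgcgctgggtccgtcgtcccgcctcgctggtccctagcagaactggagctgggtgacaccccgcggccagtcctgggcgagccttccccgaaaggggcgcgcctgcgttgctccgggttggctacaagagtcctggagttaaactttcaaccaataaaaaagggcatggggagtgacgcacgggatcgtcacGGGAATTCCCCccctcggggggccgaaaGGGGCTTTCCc
Traf3 promoter, chr12:111166120-111166369, plus strand: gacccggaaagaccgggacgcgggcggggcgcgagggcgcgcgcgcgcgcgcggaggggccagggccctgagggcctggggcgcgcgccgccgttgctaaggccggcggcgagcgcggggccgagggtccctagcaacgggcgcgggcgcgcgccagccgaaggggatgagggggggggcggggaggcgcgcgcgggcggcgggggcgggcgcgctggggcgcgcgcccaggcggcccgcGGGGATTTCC
Tnfaip3 promoter, chr10:19015411-19015660, minus strand: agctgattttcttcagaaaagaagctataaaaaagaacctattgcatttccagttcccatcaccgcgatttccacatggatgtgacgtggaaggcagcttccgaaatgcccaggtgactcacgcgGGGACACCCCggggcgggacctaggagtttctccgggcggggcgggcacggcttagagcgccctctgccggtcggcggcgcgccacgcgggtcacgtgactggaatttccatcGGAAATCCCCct
Birc3 promoter, chr9:7873171-7873420, minus strand: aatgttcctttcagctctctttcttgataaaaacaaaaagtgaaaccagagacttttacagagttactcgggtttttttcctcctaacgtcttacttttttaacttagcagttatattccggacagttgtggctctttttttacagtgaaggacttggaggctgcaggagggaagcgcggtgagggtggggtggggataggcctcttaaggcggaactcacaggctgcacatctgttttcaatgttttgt
Nfkb2 had 3 matches, a pair that overlap in 1 run of capitals and another at the end of the window. Traf3 had 1 and Tnfaip3 had 2. A match describes the letters and does not show that a factor binds there. The starts are those of RefSeq. By the gene bounds given below, the Nfkb2 window lies inside the gene and that of Tnfaip3 almost wholly so. Nfkb2 had 3 promoters listed, and Tnfaip3 and Birc2 had 2 each, of which only the first was used for the members.

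Between 12762453 and 15591986 reads per library were recovered from the steps of the larger deposited table, and 9 members, all but Nfkb2, had a row there. Their median recovered reads per library ranged from 355.5 for Birc3 to 1071 for Traf3. All 5 epithelial markers (Epcam, Krt8, Krt18, Krt19 and Cdh1) were detected in all 32 tumors. As bulk RNA was sequenced, more cells that express a gene and more RNA per cell cannot be told apart for any of the values. Several members overlap other annotated genes in GRCm38. On the opposite strand, Nfkb2 shares 1292 bases with AC114539.1 and 299 with Psd. Traf3 shares 18122 bases with 4930595D18Rik and Traf2 240 with a pseudogene, both on the opposite strand. Map3k14 shares 2613 bases with 1700028N14Rik on the same strand. Whether strand was used in the counting is not given in the sources used here.

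Divided by exon length, Nfkb2 was the most abundant member in untreated tumors, at 302 ± 28.6 normalized counts per kb (SD, n = 8). Its range did not overlap that of Chuk, the next, at 142 ± 6.38 normalized counts per kb. Relb followed at 133 ± 19.2, Traf3 at 125 ± 11.6, Traf2 at 105 ± 10.2, Birc2 at 104 ± 3.09, Tnfaip3 at 90.1 ± 12.1, Map3k14 at 68.7 ± 8.82, Birc3 at 66.0 ± 6.18 and Traf1 at 52.4 ± 10.5 per kb. From Chuk downward, the range of each gene overlapped that of its neighbor in this order.

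Of the transcription factors and kinases that define the pathway, Nfkb2, Relb and Map3k14 passed the test in none of 6 comparisons, and Chuk passed in 1. Nfkb2 (GRCm38 chr19:46304320-46312385, plus strand) encodes the precursor p100. Its normalized count ran from 1243 through a median of 1341 to 1629.6 in untreated tumors and from 1171 through 1353 to 1587 after ADU-S100. It ran from 1273 through 1455 to 1677 after anti-LTbR and from 1160.3 through 1298 to 1805 after the combination. The 4 groups overlapped almost entirely, and the combination tumors reached both lower and higher than the untreated ones. The log2 difference of combination against untreated was 0.02 (SE 0.093, 95% interval -0.18 to 0.21, limma adjusted p = 0.91). As a ratio this is 1.01, with a 95% interval of 0.88 to 1.16.

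Relb (chr7:19606217-19629438, minus strand) encodes the partner of p52. Its normalized count was 411, 495 and 638 as lowest, median and highest value in untreated tumors, and 466, 533 and 683 in combination tumors. With a single agent the values were 478, 528 and 664 after ADU-S100 and 476, 524 and 629.5 after anti-LTbR. These groups also overlapped, with 1 combination tumor and 1 ADU-S100 tumor above all untreated ones. The log2 difference was 0.10 for combination against untreated (95% interval -0.10 to 0.30, limma adjusted p = 0.40) and 0.08 for anti-LTbR against untreated (95% interval -0.10 to 0.25, limma adjusted p = 0.53).

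Map3k14 (chr11:103219762-103267472, minus strand), the gene of NIK, had medians of 450.4 normalized counts without treatment, 392 after ADU-S100, 402 after anti-LTbR and 429 after the combination, within a range of 354 to 552 over all 32 tumors. Chuk (chr19:44073335-44107480, minus strand) had medians of 711, 783, 734 and 685 normalized counts in the same order. Chuk was the one member with a called decrease: it fell by 0.16 on the log2 scale in combination against ADU-S100 tumors (95% interval -0.28 to -0.03, limma adjusted p = 0.035). This call was lost in 7 of 10 other settings, with adjusted p-values from 0.052 to 0.089 and differences of -0.12 to -0.16 over all 10, and when any of 9 of the 16 tumors was left out (ADU-S100 replicates 2, 3, 5, 6 and 8, Combination replicates 3, 5, 6 and 7). Over the 6 comparisons, none of the 24 tests of Nfkb2, Relb, Map3k14 and Traf2 reached the threshold, and the lowest adjusted p among them was 0.27.

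**Figure D1:**
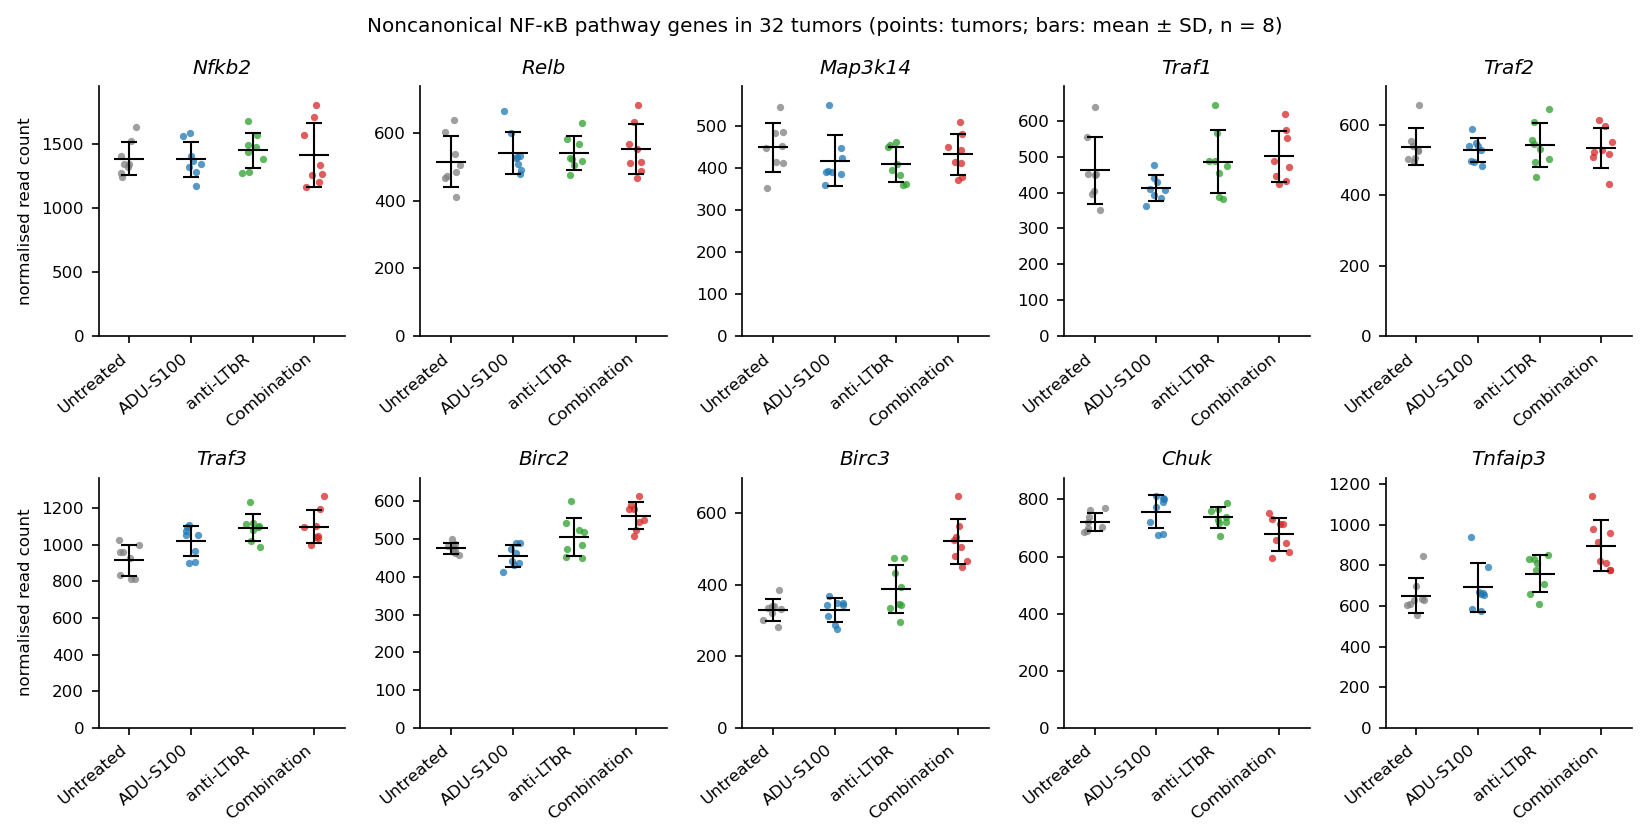
Normalised read count of the 10 pathway genes (y axes, from 0) in the 4 treatment groups (x axes), with single tumors as points and black bars for the mean ± SD of 8 tumors. All combination tumors lie above all untreated tumors for Birc2 and Birc3, while the 4 groups of Nfkb2, Relb and Traf2 overlap.

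In combination against untreated tumors, 4 of 10 members were called at an adjusted p below 0.05, all of them higher: Birc3, Tnfaip3, Traf3 and Birc2. Of 16909 genes tested, 43.2% were called, 19.6% as higher and 23.6% as lower, so the share of members called lies near that of all genes. The median log2 difference of the 10 members was 0.11, against -0.02 over all genes tested. No member changed by at least 2-fold, a size that 6.12% of all genes reached together with the adjusted p.

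Birc3 (chr9:7848699-7873186, minus strand), which encodes cIAP2, differed most. Its normalized count was 281 at the lowest, 335 at the median and 387 at the highest among untreated tumors. The values were 277, 344 and 369 after ADU-S100 and 297, 371 and 476 after anti-LTbR. In the combination group they were 449.7, 516 and 649, so that all 8 combination tumors lay above all untreated and all ADU-S100 tumors, and 6 of the 8 above all anti-LTbR tumors. The log2 difference of combination against untreated was 0.65 (SE 0.076, a ratio of 1.57 with a 95% interval of 1.41 to 1.76, limma adjusted p = 1.8e-05). Against anti-LTbR alone it was 0.44 (SE 0.10, limma adjusted p = 0.0057), and against ADU-S100 alone 0.66 (SE 0.078, limma adjusted p = 1.5e-05). Neither agent alone gave a call, with log2 differences of 0.22 (95% interval 0.01 to 0.42, limma adjusted p = 0.13) for anti-LTbR and -0.01 (95% interval -0.16 to 0.15, limma adjusted p = 0.97) for ADU-S100.

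Birc2 (chr9:7818227-7837064, minus strand), the gene of cIAP1, ends 11634 bases from Birc3. Its untreated tumors had the narrowest range of all members, from 458 through 473 to 500.0 normalized counts. The values were 414, 452 and 491 after ADU-S100, 450.3, 501 and 601 after anti-LTbR, and 508, 566 and 614 after the combination. As for Birc3, all 8 combination tumors exceeded all untreated and all ADU-S100 tumors. The rise was smaller, with a log2 difference of 0.24 (SE 0.044, a ratio of 1.18, limma adjusted p = 0.00046) against untreated and 0.30 (SE 0.049, limma adjusted p = 0.00013) against ADU-S100 tumors. Thus 2 of 10 members did not overlap between combination and untreated tumors, a separation seen in 10.7% of all genes tested, and the same 2 did not overlap between combination and ADU-S100 tumors, where the share of all genes was 12%. Both are related genes of 1 locus, and reads that could align to either were not examined.

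Tnfaip3 (chr10:19000910-19015657, minus strand) encodes A20, a ubiquitin-editing enzyme that limits NF-kB signaling. Untreated tumors had 557, 629 and 844 normalized counts as lowest, median and highest, and combination tumors 775, 867 and 1141. The single agents gave 574, 661 and 941 for ADU-S100 and 611, 794 and 850.5 for anti-LTbR. The groups overlapped through 1 untreated tumor at the height of the combination tumors. Tnfaip3 rose by a log2 difference of 0.46 against untreated (SE 0.090, a ratio of 1.38 with a 95% interval of 1.21 to 1.57, limma adjusted p = 0.00073) and of 0.38 against ADU-S100 tumors (SE 0.10, limma adjusted p = 0.0059). Against anti-LTbR tumors the difference of 0.24 had a limma adjusted p of 0.058, and anti-LTbR against untreated one of 0.22 with a limma adjusted p of 0.082.

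Traf3 (chr12:111166370-111267153, plus strand) encodes the adapter that brings NIK to the ligases. It was the member that rose with anti-LTbR alone. Normalized counts were 811, 943 and 1025 in untreated, 900.3, 1055 and 1107 in ADU-S100, 987, 1101 and 1234 in anti-LTbR, and 998, 1074 and 1267 in combination tumors. Of the 8 tumors of a group, 5 with ADU-S100, 6 with anti-LTbR and 7 with the combination lay above all untreated tumors. The log2 difference against untreated was 0.26 (SE 0.059, limma adjusted p = 0.010) for anti-LTbR and 0.26 (SE 0.063, limma adjusted p = 0.0031) for the combination. Between combination and anti-LTbR tumors the difference was 0.0043 (95% interval -0.11 to 0.12, limma adjusted p = 0.96), and for ADU-S100 against untreated the difference was 0.16 (95% interval 0.02 to 0.29, limma adjusted p = 0.31).

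In anti-LTbR against untreated tumors, Traf3 was thus 1 of 10 members called, against 15.3% of 16691 genes tested, 7.21% higher and 8.1% lower. In ADU-S100 against untreated tumors 0 of 10 members and 0% of 16613 genes were called by limma, although 2408 genes had an unadjusted p below 0.05. On the recovered reads the same comparison gave 1 gene with edgeR and TMM scaling and 57 with DESeq2, and 0 of the 9 members with either. These comparisons share the untreated tumors, and those below share the combination tumors, so they are not independent of each other.

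Traf1 and Traf2 encode adapters of the same family, and Traf1 is widely known as an NF-kB target gene. Traf1 (chr2:34941750-34961772, minus strand) had medians of 450.4 in untreated, 409 in ADU-S100, 480.3 in anti-LTbR and 479 normalized counts in combination tumors. Its ADU-S100 tumors spanned 362 to 476 and its combination tumors 424 to 617. It was higher in combination than in ADU-S100 tumors by 0.27 on the log2 scale (95% interval 0.10 to 0.44, limma adjusted p = 0.012), but not called against untreated tumors (0.13, 95% interval -0.11 to 0.37, limma adjusted p = 0.38). The first call was lost when the libraries with above 14000000 recovered reads were used alone, 7 untreated and 6 in each other group (0.20, limma adjusted p = 0.11). Traf2 (chr2:25517982-25546940, minus strand) had medians between 525 and 538 normalized counts in all 4 groups, and its difference in combination against untreated tumors was -0.01 (95% interval -0.16 to 0.14, limma adjusted p = 0.90).

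Against ADU-S100 tumors, 5 of 10 members were called in combination tumors (Birc3, Birc2, Tnfaip3 and Traf1 higher, Chuk lower), beside 46.2% of 16811 genes, 20.2% higher and 26% lower. Against anti-LTbR tumors 1 of 10 was called, Birc3, beside 26.6% of 16932 genes, 11.3% higher and 15.3% lower. Other fits of this comparison also called Birc2 and Tnfaip3. On the recovered reads the adjusted p of Birc2 was 0.049 by edgeR with TMM scaling and 0.037 by DESeq2, and in a joint limma fit of all 4 groups it was 0.027. The adjusted p of Tnfaip3 on the recovered reads was 0.041 by edgeR with either TMM or RLE scaling and 0.022 by DESeq2.

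**Figure D2:**
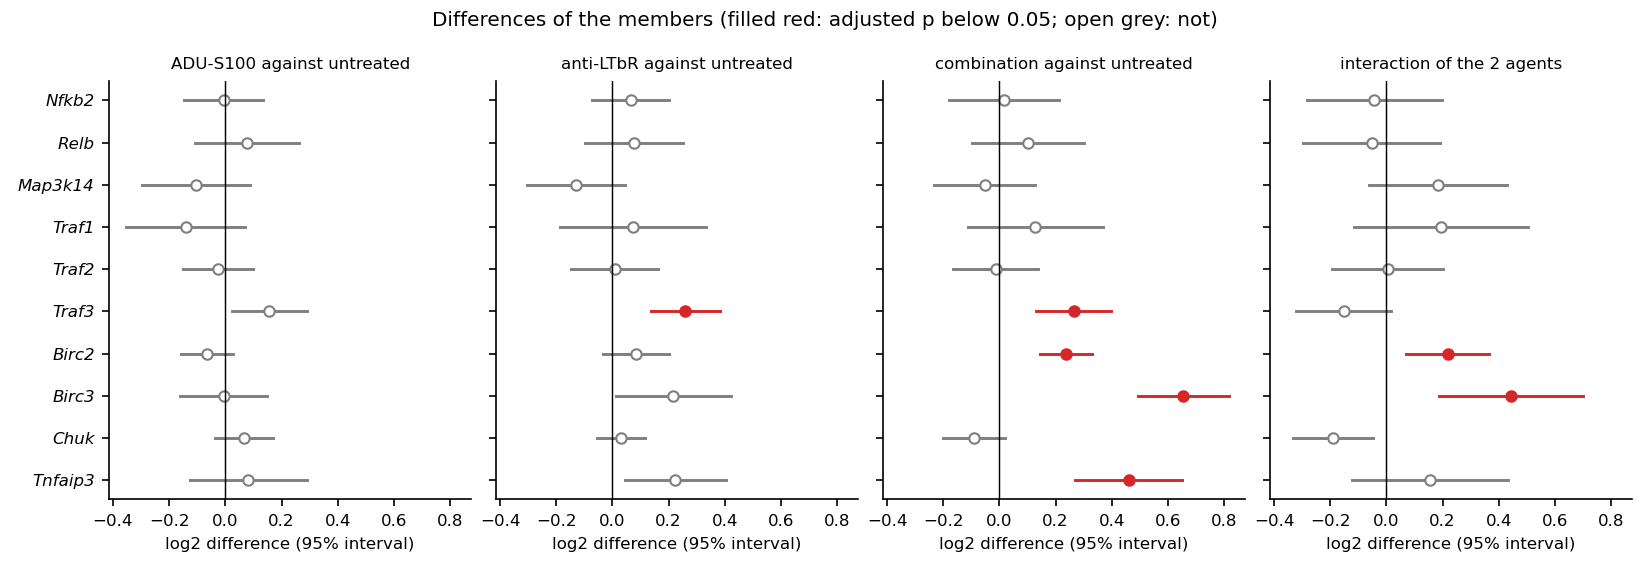
Log2 difference of each member (points) with its 95% interval (lines) in 3 comparisons against untreated tumors and in the interaction of the 2 agents, filled red where the limma adjusted p was below 0.05. Birc3 lies farthest from 0, at 0.65 in combination against untreated tumors, and Nfkb2, Relb, Map3k14 and Traf2 have intervals that include 0 throughout.

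Whether the agents acted on a gene as the sum of their single effects was tested as an interaction over the 32 tumors, that is the log2 effect of anti-LTbR in ADU-S100-treated tumors less that in tumors without ADU-S100. It was called for 2 of 10 members, both above 0, beside 18.4% of 17649 genes, 7.33% above and 11% below 0. The interaction was 0.44 for Birc3 (SE 0.13, 95% interval 0.19 to 0.70, limma adjusted p = 0.014) and 0.22 for Birc2 (SE 0.072, 95% interval 0.07 to 0.37, limma adjusted p = 0.033). For Nfkb2 it was -0.04 (95% interval -0.28 to 0.20) and for Relb -0.05 (95% interval -0.30 to 0.19), and neither was called. That of Chuk was -0.19 (95% interval -0.33 to -0.05) with a limma adjusted p of 0.055. Chuk was called when any of 9 tumors was left out (Untreated replicates 5 and 7, ADU-S100 replicates 1 and 7, anti-LTbR replicate 3, Combination replicates 1, 2, 4 and 8), with limma adjusted p-values from 0.029 to 0.048. The Birc3 and Birc2 calls were both lost with the deeper libraries alone (Birc3 0.33, limma adjusted p = 0.10, and Birc2 0.13, limma adjusted p = 0.31). The Birc2 call was also lost without the filter on low values (limma adjusted p = 0.053), by edgeR with library totals (adjusted p = 0.053) and when any of 8 tumors was left out (Untreated replicate 3, ADU-S100 replicates 3 and 4, anti-LTbR replicates 5, 7 and 8, Combination replicates 3 and 5), with adjusted p-values up to 0.061.

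In combination against untreated tumors, the 4 calls held in each of 10 other settings and with each of the 16 tumors left out. The Birc3 difference stayed between 0.60 and 0.69, that of Tnfaip3 between 0.41 and 0.51, that of Traf3 between 0.23 and 0.29 and that of Birc2 between 0.21 and 0.26. In combination against anti-LTbR tumors the Birc3 call was lost with the deeper libraries alone (0.29, limma adjusted p = 0.078) and kept in the other 9 settings.

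Markers of several cell types moved between the same groups. In combination against untreated tumors, all 5 fibroblast, all 5 endothelial and all 5 T cell markers rose, as did 4 of 5 B cell, 4 of 5 macrophage and 3 of 5 dendritic cell markers, whereas 3 of 5 epithelial markers fell. The summed level of the fibroblast markers ran from 59973 to 96072 normalized counts in the untreated group, from 41159.9 to 114828 with ADU-S100, from 47618 to 100118 with anti-LTbR and from 101303 to 369587 with both. That of the endothelial markers was 1166 to 1688, 913 to 1546.5, 1334 to 1843 and 2131 to 3018 normalized counts in the same order, so that the combination tumors lay above all others in both lists, except for ADU-S100 tumors in the fibroblast sum. The epithelial sum was 15947 to 28939, 13223 to 21772, 13111 to 16159.7 and 6829 to 14654. Of the mean epithelial sum 97.5% came from Krt8, Krt18 and Krt19, which were the 3 that fell with the combination, whereas Epcam (log2 difference 0.56, limma adjusted p = 0.31) and Cdh1 (-0.27, limma adjusted p = 0.62) were not called there. Col1a1 and Col1a2 gave 91.0% of the fibroblast sum and Lyz2 72.1% of the macrophage sum, so these sums follow a few genes. The immune cell sums were 369.7 to 915, 445 to 689, 611 to 902 and 722 to 1221 for T cells and 77.7 to 266, 53.4 to 209.9, 115 to 552 and 163 to 779 for B cells. They were 16489 to 32675, 17494 to 29488, 31652 to 41003 and 29958 to 71069 for macrophages, and 267 to 438, 272 to 417, 406 to 562 and 447 to 645 for dendritic cells. With anti-LTbR alone, 3 of 5 endothelial, 3 of 5 macrophage, 2 of 5 dendritic cell, 1 of 5 T cell and 1 of 5 B cell markers rose, 3 of 5 epithelial markers fell and no fibroblast marker was called, and with ADU-S100 alone no marker of any list was called. No marker was at 0 in any tumor. The part of cell composition in the rise of Birc3, Birc2, Tnfaip3 and Traf3 was not tested.

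Although the mean levels of Nfkb2 and Relb did not differ by the test between treatments, both varied from tumor to tumor within a treatment, and they did so together with other members. With group means removed, the log2 normalized counts of Nfkb2 and Relb were correlated over the 32 tumors (r = 0.71, rho = 0.73, adjusted p = 0.00015 for each by permutation within groups). Nfkb2 was likewise correlated with Traf1 (r = 0.78, rho = 0.81) and Traf2 (r = 0.74, rho = 0.78). All 6 pairs among Nfkb2, Relb, Traf1 and Traf2 passed, with r from 0.67 to 0.78, rho from 0.63 to 0.81 and adjusted permutation p-values of at most 0.00045 for r and 0.0012 for rho. Without the 2 tumors farthest from the median, r in these pairs was 0.57 to 0.78. These genes were picked from the same correlations, so that all their pairs passed is a description and tests no group. The value of 0.00015 is the smallest that 100000 permutations and the adjustment gave here.

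Within single groups of 8, the r between Nfkb2 and Relb was 0.85 in untreated, 0.45 in ADU-S100, 0.50 in anti-LTbR and 0.91 in combination tumors. Between Nfkb2 and Traf1 it was 0.89, 0.54, 0.98 and 0.84 in the same order. These within-group values are given without a test. Untreated replicate 3, for example, had the highest Nfkb2 of its group at 1629.6 normalized counts and the highest Traf1 at 638, and anti-LTbR replicate 1 the highest of its group for both, at 1677 and 645.

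**Figure D3:**
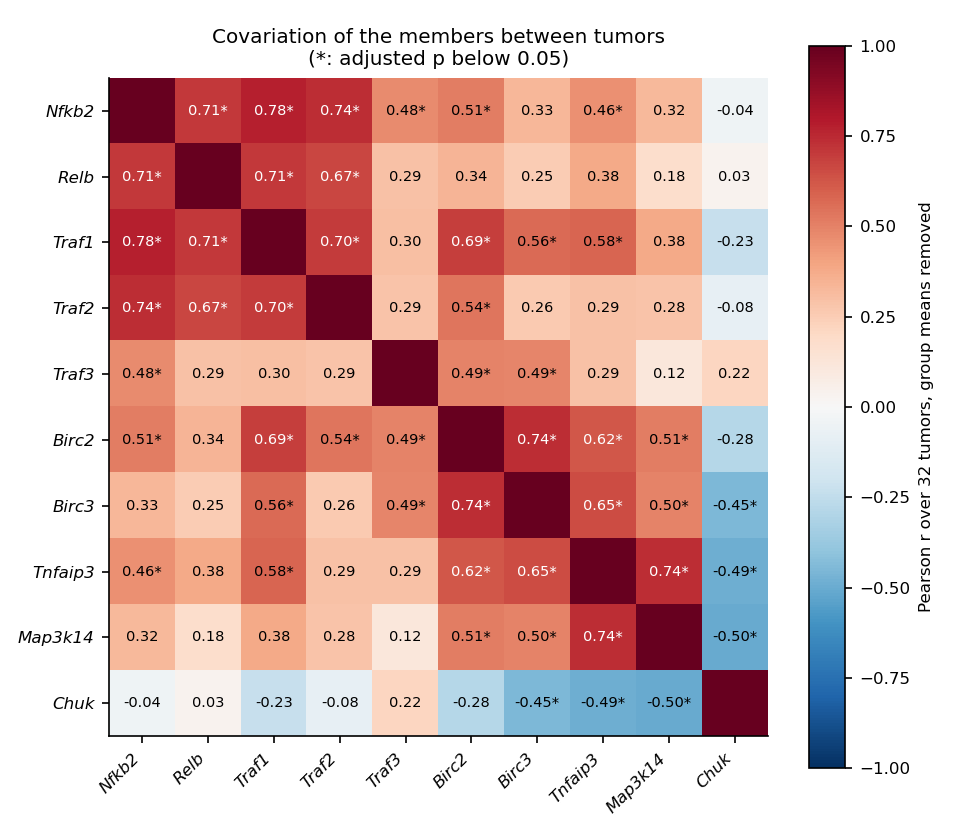
Pearson r between each pair of members over 32 tumors after the group means were removed from log2(normalized count + 1), with red for positive and blue for negative values and asterisks at an adjusted permutation p below 0.05 over 45 pairs. The pairs among Nfkb2, Relb, Traf1 and Traf2 have an r of 0.67 or more, several of these genes are also correlated with Birc2, Birc3 or Tnfaip3, and Chuk has negative values with Map3k14, Tnfaip3 and Birc3.

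All 6 pairs among Birc2, Birc3, Tnfaip3 and Map3k14 also passed, with r from 0.50 to 0.74, rho from 0.46 to 0.72 and adjusted permutation p-values of at most 0.0094 for r and 0.025 for rho. Without the 2 farthest tumors r was 0.49 to 0.70. Like the first 4, these genes were picked from the same correlations, so that all their pairs passed tests no group. Map3k14 and Tnfaip3 had an r of 0.74 (rho = 0.68, adjusted permutation p = 0.00015 for r and 0.00051 for rho), and Birc2 and Birc3 one of 0.74 (rho = 0.72, adjusted permutation p = 0.00019 for r and 0.00045 for rho). These 4 genes were not separate from the first 4, since 6 of the 16 pairs across them passed as well, with r from 0.46 to 0.69, rho from 0.46 to 0.66 and adjusted permutation p-values of at most 0.024 for r and 0.025 for rho. They were Birc2 with Traf1, Traf2 and Nfkb2, Tnfaip3 with Traf1 and Nfkb2, and Birc3 with Traf1. Traf3, outside both sets, passed with Nfkb2 (r = 0.48, rho = 0.42), Birc2 (r = 0.49, rho = 0.50) and Birc3 (r = 0.49, rho = 0.46). The adjusted permutation p-values were 0.018, 0.0079 and 0.0094 for r, and 0.040, 0.0093 and 0.020 for rho. Chuk ran against 3 members, Map3k14 (r = -0.50, rho = -0.48), Tnfaip3 (r = -0.49, rho = -0.43) and Birc3 (r = -0.45, rho = -0.39), with adjusted permutation p-values of 0.012, 0.020 and 0.020 for r and of 0.022, 0.040 and 0.058 for rho. The rho of Chuk and Birc3 thus did not pass. Of all 45 pairs, 24 passed by r and 23 by rho, and in the pairs that passed by r the value without the 2 farthest tumors kept its sign and stayed at 0.40 or more in size. The share that passes among pairs of other genes was not computed, so these counts have no background to be set against. With the deeper libraries alone, 15 of 45 pairs passed.

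**Figure D4:**
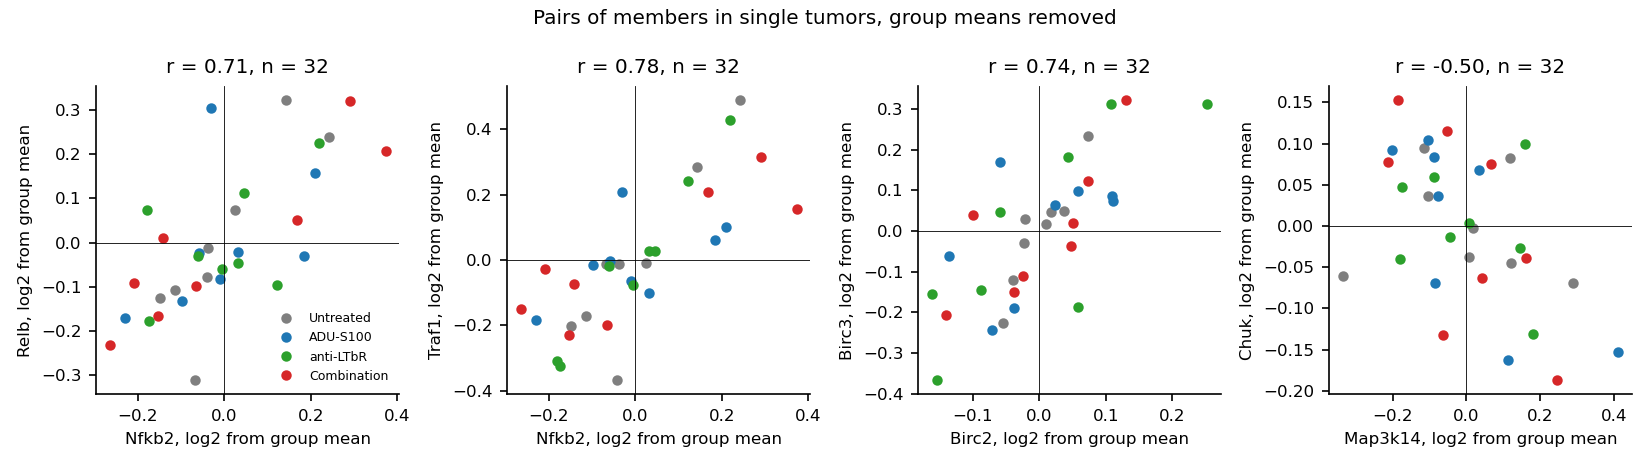
Log2 normalised counts of 4 pairs of members in the 32 tumors, each as the difference from its group mean (both axes, log2 units), colored by treatment. Nfkb2 rises with Relb (r = 0.71) and Traf1 (r = 0.78), Birc2 with Birc3 (r = 0.74), and Map3k14 runs against Chuk (r = -0.50).

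The same deviations were set against the summed level of each of the 7 marker lists and against recovered reads, 80 relations in all. By r or rho, 0 of 80 passed the adjusted permutation test, and 8 had an unadjusted p below 0.05 for r. The relations of largest r were those of Traf1 with the macrophage sum (r = 0.51, rho = 0.47, adjusted permutation p = 0.14 and 0.30), Traf3 with the epithelial sum (r = -0.51, rho = -0.49, adjusted permutation p = 0.18 and 0.30) and Birc3 with the endothelial sum (r = 0.50, rho = 0.49, adjusted permutation p = 0.14 and 0.30). For Nfkb2 the macrophage sum gave an r of 0.46 and a rho of 0.36 (adjusted permutation p = 0.43 and 0.49), with an r of 0.30 without the 2 farthest tumors, and recovered reads an r of 0.29 and a rho of 0.26 (adjusted permutation p = 0.51 and 0.49).

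Of 17649 genes in the fit of all tumors, the 5 whose deviations were most like those of Nfkb2 were Cxcl11 (r = 0.81), Nfkbie (0.80), Traf1 (0.78), Trim30c (0.75) and Traf2 (0.74). For Relb they were Ttc39c (r = 0.82), Nfkbie (0.79), Cxcl11 (0.76), Trim30c (0.76) and Cxcl10 (0.74). Nfkbie encodes IkB epsilon, an inhibitor that holds NF-kB dimers in the cytoplasm, and Cxcl10 encodes a chemokine that attracts activated T cells. Nfkb2 and Relb each ranked 10 in the list of the other. Of the other members whose pair with Nfkb2 passed, Birc2 ranked 231, Traf3 386 and Tnfaip3 459 of 17648 genes. Birc3 and Map3k14, whose pairs did not pass, ranked 1481 and 1578 for Nfkb2 and 3176 and 4725 for Relb. These values are a description over 32 tumors, chosen for their size.

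Upstream of the members, Ltbr itself was not called in any comparison, with median normalized counts of 1356 without treatment, 1299 after ADU-S100, 1218 after anti-LTbR and 1216 after the combination. Of the 7 receptors known to signal through NIK, 6 were tested in combination against untreated tumors, and 3 rose and 1 fell, where 19.6% of all genes tested were called higher and 23.6% lower. Cd27 rose by 1.04 (limma adjusted p = 0.00032), Cd40 by 0.80 (limma adjusted p = 0.00020) and Tnfrsf11a, the receptor RANK, by 0.62 (limma adjusted p = 0.00091), all as log2 differences. Tnfrsf12a, the TWEAK receptor, fell by 0.97 on the log2 scale (limma adjusted p = 5.5e-05) and also fell by 0.53 with anti-LTbR alone (limma adjusted p = 0.0088). Its untreated tumors held 3182 to 6487 normalized counts and its combination tumors 1689 to 2602, without overlap.

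Of the 9 ligands of these receptors, 7 passed the filter on low values in combination against untreated tumors, and Cd40lg and Cd70 did not. Lta passed it in the comparisons that hold combination tumors, where its level is highest, but not in either single agent against untreated tumors, so it is described and not counted. Of the other 6 ligands, 4 rose and none fell, beside the same shares of all genes. Ltb, which with Lta forms the membrane ligand of LTbR, had medians of 105 and 221 normalized counts (log2 difference 0.90, limma adjusted p = 0.0015). Lta was low, with medians of 8.31 normalized counts without treatment, 6.51 after ADU-S100, 9.58 after anti-LTbR and 15.0 after the combination. Tnfsf13b, which encodes the B cell survival factor BAFF, rose by a log2 difference of 0.74 (limma adjusted p = 0.00097) and, as the one ligand called with anti-LTbR alone, by 0.50 there (limma adjusted p = 0.035). Tnfsf11 (0.73) and Tnfsf12 (0.30) were the other ligands that rose. Tnfsf14 (LIGHT), a further ligand of LTbR, was not called against untreated tumors (0.30, limma adjusted p = 0.14) but was higher with the combination than with anti-LTbR (0.51, limma adjusted p = 0.0082) or ADU-S100 alone (0.58, limma adjusted p = 0.00087), and its interaction was called (0.80, limma adjusted p = 0.0068).

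Of 14 genes of the canonical arm, 4 rose (Rel, Ikbkg, Nfkbia and Nfkbie, by log2 differences of 0.24 to 0.56) and 3 fell (Nfkb1 by 0.18, Rela by 0.14 and Tab1 by 0.16) in combination against untreated tumors, and the median was -0.07. Among all genes tested in this comparison, 19.6% were called higher and 23.6% lower, so the counts of this list, and those of the regulators that follow, are near the background of that comparison. With anti-LTbR alone, where 7.21% of all genes were called higher, Ikbkg (0.40) and Nfkbie (0.35) rose. Of 12 other regulators around the TRAF proteins, NIK and A20, 3 rose (Peli1 0.23, Tbk1 0.20 and Tnip2 0.27) and 3 fell (Otud7b by 0.26, Tax1bp1 by 0.25 and Rnf11 by 0.31) with the combination. Otud7b encodes a deubiquitinase that preserves TRAF3, and TAX1BP1 and RNF11 are partners of A20. The interaction of the agents on Otud7b was -0.38 (SE 0.061, limma adjusted p = 0.00035). With anti-LTbR alone, 3 of the 12 regulators were called higher, beside the 7.21% of all genes, and the list was not tested. Cyld, Peli1 and Tbk1 rose there by log2 differences of 0.22, 0.18 and 0.17.

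Of 10 genes known as targets of RelB and p52 or of LTbR, 7 passed the filter on low values, and Madcam1, Glycam1 and Chst4 did not. Of these 7, 5 rose in combination against untreated tumors: Ccl21a, Vcam1, Icam1, Cxcl12 and Tnfsf13b. Of all 16909 genes tested there, 19.6% were called higher, and whether the list stands apart from them was not tested. Vcam1, an adhesion molecule of endothelium and stroma, went from 844 to 1778 normalized counts in untreated tumors to 1729 to 3457 after anti-LTbR and 1599 to 3249 after the combination. Its log2 difference against untreated was 1.03 (limma adjusted p = 0.00089) and 1.16 (limma adjusted p = 4.0e-05), and the difference between both treated groups was 0.14 (limma adjusted p = 0.55).

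Icam1, a ligand of leukocyte integrins, rose by 0.46 with anti-LTbR (limma adjusted p = 0.011) and by 1.15 with the combination (limma adjusted p = 5.5e-05), all as log2 differences from untreated tumors. Cxcl12, a chemokine of stromal cells, rose by 1.04 with the combination (limma adjusted p = 0.00026) and had a difference of 0.11 with anti-LTbR (limma adjusted p = 0.68). Ccl21a, a chemokine for naive T cells and dendritic cells, had a log2 difference of 1.93 with the combination (limma adjusted p = 5.5e-05), from 174 to 746 normalized counts in untreated and 961 to 2107 in combination tumors. Ccl21a has near-identical copies in the mouse genome, so its count is uncertain. With ADU-S100 alone no gene of these 5 lists was called. The B cell chemokine Cxcl13 was low, with a median normalized count of 29.1 without treatment, 10.4 after ADU-S100, 28.8 after anti-LTbR and 13.9 after the combination. Its log2 difference from untreated tumors was -0.96 with the combination (limma adjusted p = 0.073) and -1.32 with ADU-S100 (limma adjusted p = 0.29), and its level with the combination was below that with anti-LTbR alone by 1.09 (limma adjusted p = 0.035).

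**Figure D5:**
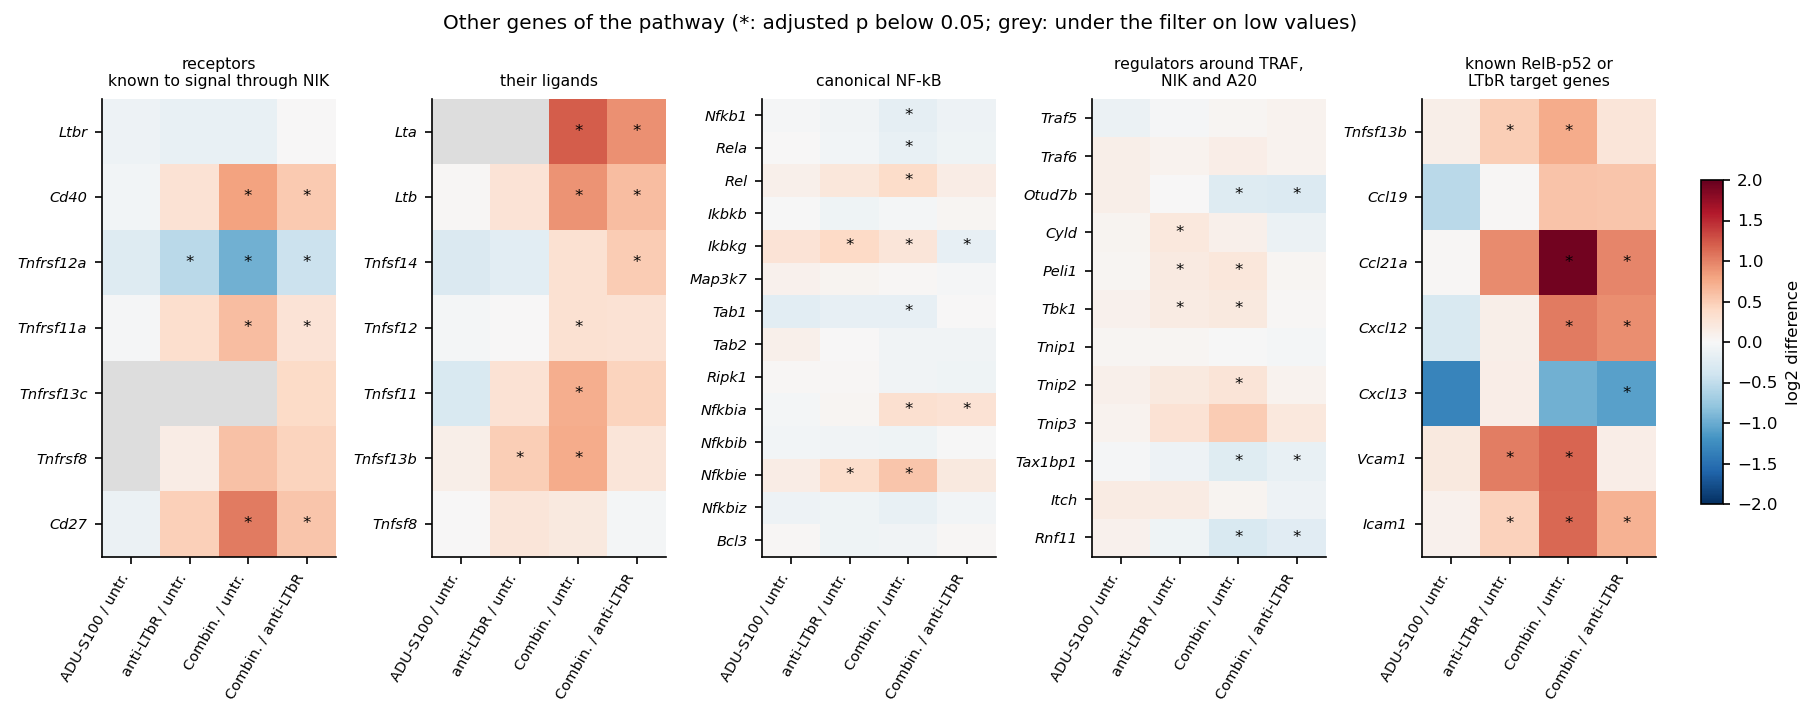
Log2 differences (color, from -2 in blue to 2 in red) of 5 lists of other pathway genes in 4 comparisons, with asterisks at an adjusted p below 0.05 and grey where a gene was under the filter on low values; genes that no shown comparison tested are left out. Receptors, ligands and target genes are mostly red in combination against untreated tumors, with Tnfrsf12a, Cxcl13 and, faintly, Ltbr on the blue side.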

How the data were processed

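RNA-seq libraries were made from poly(A) RNA of 52 tumors with a stranded dUTP protocol. Per the labels and the methods of the study, reads were trimmed with Cutadapt 1.9 and checked with FastQC, and HISAT2, StringTie, DESeq2, edgeR, Partek, STAR and mm39 are named, without a statement of which pipeline made which table. The deposited values are normalized counts (signal), gene-level reads scaled by a single factor for each library. The authors' gene set table holds their own enrichment scores and p-values and was not used.

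The table of 32 tumors was fitted with limma 3.58.1 (R 4.3.3) on log2(value + 1), a scale that understates changes of low genes, after edgeR's filterByExpr with a minimum of 10, pairwise over 16 tumors and with Benjamini-Hochberg adjustment at 0.05. The interaction used all 32. Whole reads were recovered from the larger deposited table (at least 99.97% of values whole within 0.1 reads, steps told from rounding in 23 of 32 columns) for edgeR 4.0.16 and DESeq2 1.42.0 as alternatives. Correlations used deviations from group means with 100000 permutations within groups, two-sided. Their alternatives, the sets of members described together and the relations to marker sums were chosen after seeing the data. The fits were tested on simulated data. Markers, pathway lists and members were chosen with earlier results of these data known. Genes named are the members, those of the lists, the 5 most like Nfkb2 and Relb and those that overlap a member. Of the other 20 tumors, labels gave a consistent group for 5. Part of the genotype of the tumor line is not reported here.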

Additional observations from a re-analysis of the deposited data

Results flagged for a closer look

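Among 40 sets of 8 tumors (10 members in 4 groups), 2 held a tumor far from the others by Dixon's criterion, a share that chance gives in about 1 of 20 sets. Map3k14 was at 552 normalized counts in ADU-S100 replicate 7, with the nearest tumor at 449, and Traf2 was at 657 in Untreated replicate 4, with the nearest at 553. By the interaction test, the effect of anti-LTbR differed with and without ADU-S100 for Birc2 (interaction 0.22 on the log2 scale, limma adjusted p = 0.033) and Birc3 (0.44, limma adjusted p = 0.014). The Birc2 call was lost without the filter on low values (limma adjusted p = 0.053), by edgeR with library totals (adjusted p = 0.053), in the deeper libraries (0.13, limma adjusted p = 0.31) and in 8 of 32 fits with 1 tumor left out. The Birc3 call was lost in the deeper libraries (0.33, limma adjusted p = 0.10).

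In the larger table, some medians of libraries from the other experiment lay above the highest untreated tumor of the 32, which is not a control of that experiment. In the 5 libraries with a combination label the median was 722 for Relb (highest untreated 640.2), 700.4 for Traf1 (647), 792 for Traf2 (659), 689 for Birc2 (507), 529 for Birc3 (392) and 793 for Chuk (790.0). In the 15 libraries without a group it was 593 for Birc2, 499 for Birc3 and 896 for Chuk. The Traf3 median lay below the lowest untreated tumor (814), at 699 in the 5 libraries and 791 in the 15, and those of Map3k14 and Tnfaip3 lay within the untreated range in both sets. These differences were not tested.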

How the results depend on the processing

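The 4 calls in combination against untreated tumors and the Traf3 call with anti-LTbR held under each alternative without a fold threshold. Asking also for a 2-fold change left 0 members in the 5 tests with calls, and 1034 genes for combination and 173 for anti-LTbR against untreated, 357 and 1038 for combination against anti-LTbR and ADU-S100, and 540 for the interaction. With libraries above 14000000 reads alone, members called were 2 for anti-LTbR against untreated, 0 for combination against anti-LTbR, 3 for combination against ADU-S100 and 0 for the interaction, genes called were 1537 for anti-LTbR and 7 for ADU-S100 against untreated, 1450 for combination against anti-LTbR and 1568 for the interaction, and 15 of 45 pairs of members covaried. On recovered reads, where Nfkb2 has no row, 15 of 36 pairs covaried with library totals and 18 of 36 with TMM or RLE. For ADU-S100 against untreated, 1 gene was called by edgeR with TMM, RLE or library totals and in the joint fit of 4 groups, and 57 by DESeq2. For combination against anti-LTbR, members called were 3 with TMM and 3 with DESeq2 (Birc2 and Tnfaip3 added), 2 with RLE (Tnfaip3 added) and 2 in the joint fit (Birc2 added), and for the interaction 1 without the filter and 1 with library totals, the Birc2 call being lost in both. The causes were not tested.

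Replicate numbers were not used as pairs in the main fits. Between tumors of the same number, 2 to 6 of 8 pairs per comparison had a correlation over 0.1. The mean ran from -0.085 in anti-LTbR against untreated to 0.19 in ADU-S100 against untreated. Tumors of unlike number were not compared, so whether the numbers mark pairs was not tested. With the replicate number as a block, 1660 genes were called for anti-LTbR and 2 for ADU-S100 against untreated, the Chuk call against ADU-S100 was lost (limma adjusted p = 0.067), and 33 of 45 pairs covaried.

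Signs changed only for differences near 0, none of them called. Traf2 was at 0.0016 with RLE, 0.0082 with library totals and 0.0014 with DESeq2 in combination against untreated, and at 0.0034 with TMM, 0.0033 with RLE and 0.0024 with DESeq2 against anti-LTbR. In the deeper libraries Nfkb2 was at 0.023 for ADU-S100 against untreated, Traf1 at -0.083 and Traf3 at -0.033 for combination against anti-LTbR, Nfkb2 at -0.011, Relb at -0.010 and Traf2 at -0.013 for combination against ADU-S100, and Traf2 at -0.067 for the interaction.

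Leaving out 1 tumor, members called ranged from 4 to 4 for combination and 1 to 2 for anti-LTbR against untreated, 0 to 0 for ADU-S100, 1 to 3 for combination against anti-LTbR, 4 to 5 against ADU-S100 and 1 to 3 for the interaction, and covarying pairs from 22 to 29. Tnfaip3 gained a call without Untreated replicate 3 or anti-LTbR replicate 8 in anti-LTbR against untreated. In combination against anti-LTbR, calls were gained by Birc2 (without anti-LTbR replicate 1 or Combination replicate 4), Tnfaip3 (without anti-LTbR replicate 3 or Combination replicates 4 or 6) and Chuk (without Combination replicate 1). Genes called ranged from 6558 to 7346 for combination and 1582 to 2927 for anti-LTbR against untreated (1582 without Untreated replicate 1, 1665 without anti-LTbR replicate 7), 0 to 6 for ADU-S100 (6 without Untreated replicate 6), 3460 to 5025 for combination against anti-LTbR, 7148 to 7805 against ADU-S100 and 2515 to 3718 for the interaction. The sign varied for Nfkb2 (-0.038 to 0.053) and Traf2 (-0.043 to 0.029) in combination against untreated, Traf2 in anti-LTbR against untreated (-0.029 to 0.050), and Nfkb2 (-0.036 to 0.028), Birc3 (-0.039 to 0.028) and Traf2 (-0.048 to 0.017) in ADU-S100 against untreated. It also varied for Traf2 (-0.058 to 0.021), Traf3 (-0.025 to 0.029) and Relb (-0.021 to 0.057) in combination against anti-LTbR, for Nfkb2 (-0.031 to 0.060), Traf2 (-0.018 to 0.054) and Relb (-0.020 to 0.069) against ADU-S100, and for Traf2 in the interaction (-0.038 to 0.046).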

Other observations

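The larger table also holds 20 libraries of another experiment. For 15 of them the labels contradict each other and no group was assigned. Over these 15, Relb ran from 442 through a median of 585 to 1167 normalized counts, Birc3 from 277 through 499 to 907 and Traf3 from 221 through 791 to 1349. In the 5 libraries with a combination label Relb ran from 577 through 722 to 2538, Traf1 from 619.8 through 700.4 to 3298 and Map3k14 from 231 through 425 to 1655, while Traf3 ran from 136 through 699 to 899, Chuk from 86.9 through 793 to 843 and Tnfaip3 from 113 through 701 to 795. In the 32 tumors of the same table, Chuk lay between 624 and 834, and Traf3 between 814 and 1061 without treatment and between 1030.3 and 1283 after the combination.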
